A study of Homo sapiens with 6 samples.

Results

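The human mitochondrial genome encodes rRNAs of the mitochondrial ribosome, mRNAs for core subunits of the respiratory chain, and the tRNAs needed to translate them. RNA from these genes was compared between T-cell leukaemia cells with and without knockdown of the mitotic kinase Aurora B. Members were the rows of the expression table whose locus begins with MT, which gave 15 of 50868 genes: 2 rRNA genes and 13 mRNA genes. The annotation of GENCODE release 29 lists 37 genes on this chromosome, and the 22 tRNA genes among them are not analysed here. All 15 members had the identical position on GRCh38 in that annotation.

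CUTLL1 is an established line of human T-cell acute lymphoblastic leukaemia. Its cells were infected with lentivirus carrying an shRNA against AURKB (shAURKB, 3 libraries) or a control shRNA named for GFP (shGFP, 3 libraries), although 1 label field calls the cells transfected. Both arms were selected with puromycin for 48 hours, and total RNA was sequenced. The series' design text calls the libraries of an arm biological replicates, and nothing ties them to separate infections, so p-values measure the spread between these samples. Library totals ran from 10154187 to 11922979 counts. AURKB had 96.95 to 107 CPM (counts scaled to a common library size) with control shRNA and 36.03 to 43.88 CPM with AURKB shRNA, a fall by 1.35 ± 0.08 on the log2 scale (SE; edgeR adjusted p = 2.54e-04, n = 3 per arm). Markers of the T lineage summed to 2668 to 2828 CPM and 2986 to 3135 CPM in the respective arms, while all 5 fibroblast and all 5 epithelial markers failed the filter on low counts. Of the 9 T-lineage markers 8 passed it, and PTCRA had at most 12 reads in any library. They did not all follow their sum: NOTCH1 had more reads in every knockdown library than in any control, and CD1E fewer. Fibroblast markers summed to 17.8 CPM and epithelial markers to 9.31 CPM in shGFP replicate 1, against at most 0.394 and 1.17 CPM in any other library. COL3A1, DCN and LUM were at 0 in every library. Of 3 B-cell markers MS4A1 was at 0, and the sum, nearly all of it CD79A, was 20.7 to 22.6 CPM in controls and 15.8 to 19.6 CPM with AURKB shRNA. The 3 myeloid markers summed to at most 0.587 CPM, with LYZ at 0. The part of these RNAs in the results below was not tested, but every member's direction held without shGFP replicate 1.

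As background, mitochondrial DNA is transcribed from both strands into long precursors. The precursor that carries both rRNAs and nearly all mRNAs is read from the heavy strand, and the light-strand precursor carries MT-ND6. Because tRNAs lie between most of the other genes, their excision frees the rRNAs and mRNAs, which then differ in stability, and most mRNAs receive a poly(A) tail. In bulk RNA, fewer cells of a type and less RNA per cell cannot be told apart.

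All 15 members passed the low-count filter, with 5309 to 180441 reads per gene and library. With AURKB shRNA, 3 members rose, 8 fell and 4 were not called (quasi-likelihood F-test of edgeR, p adjusted by Benjamini-Hochberg over 14818 genes, threshold 0.05). Among all tested genes 12.5% rose and 10.9% fell, 23.3% in either direction. Among the 167 genes at least as abundant as the least abundant member the shares were 31.1% and 15%. These 167 include the 15 members themselves, which gave 3 of the 52 that rose and 8 of the 25 that fell. The risers were MT-RNR1, MT-ND2 and MT-ND1. The fallers were MT-CO1, MT-CO2, MT-CO3, MT-ND4L, MT-ND4, MT-ND5, MT-ND6 and MT-CYB. The members' median log2 fold change was -0.11, beside -0.004 over all tested genes, with a range from -0.28 to 0.60. No member changed 2-fold. Calls over all genes were 53.4% higher with the trimmed-mean (TMM) scaling used here and 39.2% or 38.8% higher when libraries were scaled by total count or upper quartile. Those scalings lowered the estimates of all 15 members by about as much as the median gene, which moved to -0.057 or -0.058, and turned no member's direction.

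**Figure D1:**
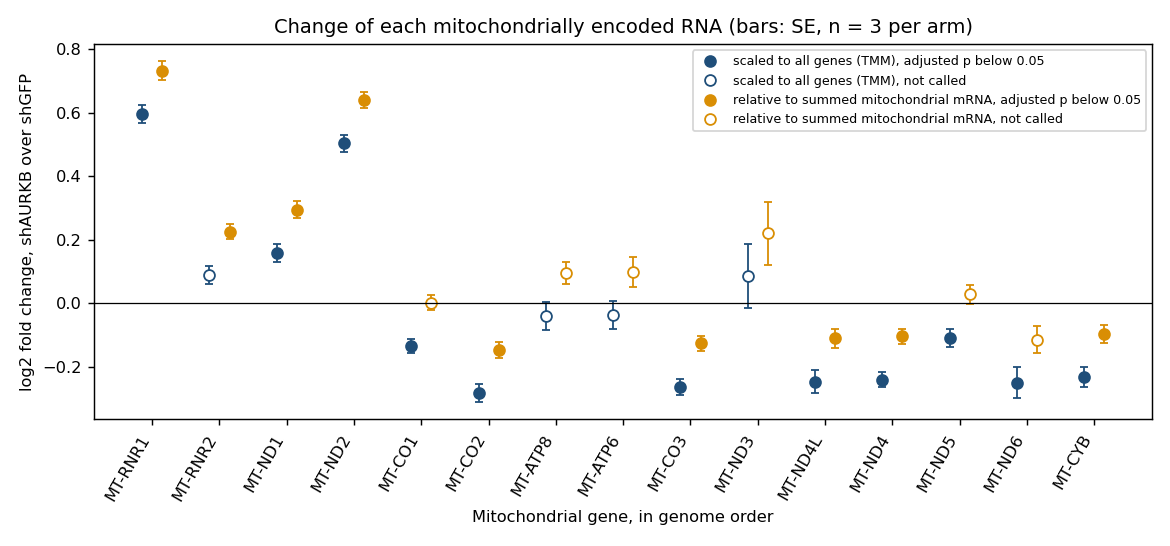
Log2 fold change of each mitochondrial RNA (shAURKB over shGFP, with SE, n = 3 per arm) in genome order on the horizontal axis, scaled to all genes or to the summed mitochondrial mRNA. Filled points passed an adjusted p of 0.05; MT-RNR1 and MT-ND2 lie highest at 0.60 and 0.50 on the first scale.

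The largest rise was in an rRNA. MT-RNR1 (ENSG00000211459, MT:648-1601, plus strand) encodes the 12S rRNA of the small ribosomal subunit. It had 970.4, 954.3 and 975.2 CPM in shGFP replicates 1 to 3 and 1466, 1489 and 1429 CPM in shAURKB replicates 1 to 3, so every knockdown library lay above every control. The log2 fold change was 0.60 ± 0.03 (SE), a rise of 51.2% (edgeR adjusted p = 1.20e-04, n = 3 per arm). MT-RNR2 (ENSG00000210082, MT:1671-3229, plus strand), which encodes the 16S rRNA of the large subunit, had 4438, 4407 and 4578 CPM in the controls and 4867, 4756 and 4662 CPM with AURKB shRNA. Its arms were also apart, as in 21.7% of all tested genes in the same direction, but the log2 difference of 0.09 ± 0.03 missed the threshold (edgeR adjusted p = 0.057). It passed without shGFP replicate 3 (edgeR adjusted p = 0.0435) and with limma-voom (adjusted p = 0.0361), within a range of 0.0361 to 0.761 over the alternatives.

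Summed over both rRNAs, the level was 5441 ± 100 CPM (SD, n = 3) with control shRNA and 6223 ± 123 CPM with AURKB shRNA, a log2 ratio of 0.19. The 13 mRNAs summed to 53057 ± 846 CPM and 48291 ± 650 CPM, a log2 ratio of -0.14. All members together made up 5.86%, 5.92% and 6.04% of the reads in the controls and 5.42%, 5.35% and 5.25% in the knockdown libraries. So the rRNA sum was higher and the mRNA sum lower in each knockdown library than in any control. Sums were described without a test.

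Complex I (NADH dehydrogenase), the entry point of electrons from NADH, has 7 mitochondrially encoded subunits, and its mRNAs went both ways: 2 rose, 4 fell and 1 was not called. MT-ND2 (ENSG00000198763, MT:4470-5511, plus strand) had 2255, 2271 and 2348 CPM in the controls and 3279, 3266 and 3204 CPM with AURKB shRNA. It rose by 0.50 ± 0.03 on the log2 scale, or 41.8% (edgeR adjusted p = 1.55e-04, n = 3 per arm). The 3 libraries of each arm lay within a narrow band, far from the other arm. MT-ND1 (ENSG00000198888, MT:3307-4262, plus strand), the next gene upstream, had 1950, 1997 and 1970 CPM against 2247, 2214 and 2144 CPM. Its rise of 0.16 ± 0.03 (edgeR adjusted p = 8.33e-03) left the arms apart. The call was lost on FPKM values with limma-trend, at adjusted p = 0.0516 and 0.0513, and 0.346 without a filter.

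The 4 complex I mRNAs that fell lie in the later part of the heavy-strand order, or on the other strand. MT-ND4 (ENSG00000198886, MT:10760-12137, plus strand) had 7435, 7493 and 7713 CPM in the controls and 6459, 6387 and 6327 CPM in the knockdown libraries. It fell by 0.24 ± 0.02 in log2 units (edgeR adjusted p = 1.26e-03). MT-ND4L (ENSG00000212907, MT:10470-10766), which shares 1 bicistronic mRNA with MT-ND4, fell by 0.25 ± 0.04 (edgeR adjusted p = 4.73e-03), from 2438, 2529 and 2611 CPM to 2156, 2179 and 2054 CPM. In both genes the arms were apart.

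MT-ND5 (ENSG00000198786, MT:12337-14148) showed the smallest called fall, 0.11 ± 0.03 (edgeR adjusted p = 0.0332), with 4160, 4195 and 4150 CPM against 3989, 3765 and 3852 CPM. Without 1 of shGFP replicates 1, 2 and 3 or shAURKB replicates 2 and 3, MT-ND5 was no longer called (edgeR adjusted p = 0.0642 to 0.0997) and with DESeq2 (adjusted p = 0.121). MT-ND3 (ENSG00000198840, MT:10059-10404) was the complex I mRNA that was not called: 633.6, 609.5 and 564.6 CPM in the controls and 704.8, 677.0 and 538.3 CPM with AURKB shRNA. The arms overlapped because shAURKB replicate 3 was the lowest of the 6 libraries. Its log2 fold change was 0.09 ± 0.10 (edgeR adjusted p = 0.573), and 0.20 without shAURKB replicate 3 (edgeR adjusted p = 0.0612).

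MT-ND6 (ENSG00000198695, MT:14149-14673, minus strand) is the member encoded on the opposite strand. It had 604.7, 656.8 and 642.3 CPM in the controls and 566.2, 517.7 and 517.7 CPM in the knockdown libraries, so the arms did not overlap. It fell by 0.25 ± 0.05 in log2 units (edgeR adjusted p = 0.0130). Its annotated end abuts that of MT-ND5. The strand setting of the counting is not given in the sources used here, so reads of MT-ND6 and of the precursor antisense to it cannot be told apart. The 7 complex I mRNAs summed to 19742 ± 262 CPM and 19015 ± 383 CPM (SD, n = 3), a log2 ratio of -0.05. The arms of this sum nearly met, with 19476 CPM in the lowest control and 19402 CPM in the highest knockdown library.

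Complex IV (cytochrome c oxidase), which passes electrons to oxygen, had all 3 of its mitochondrial mRNAs lower. MT-CO1 (ENSG00000198804, MT:5904-7445), the catalytic subunit gene and the most abundant member, had 14541, 14675 and 14909 CPM in the controls and 13447, 13369 and 13401 CPM with AURKB shRNA. It fell by 0.13 ± 0.02 on the log2 scale, or 8.9% (edgeR adjusted p = 5.53e-03). MT-CO2 (ENSG00000198712, MT:7586-8269), which encodes the subunit that takes electrons from cytochrome c, went from 5646, 5815 and 5910 CPM to 4795, 4846 and 4645 CPM. The fall of 0.28 ± 0.03 (edgeR adjusted p = 1.26e-03) was the largest among the members. MT-CO3 (ENSG00000198938, MT:9207-9990), for the third core subunit, went from 5814, 5922 and 6057 CPM to 4970, 4967 and 4900 CPM and fell by 0.26 ± 0.02 (edgeR adjusted p = 9.07e-04). All arms were apart, as in 20.9% of all tested genes in this direction. The complex IV sum was 26430 ± 438 CPM in the controls and 23113 ± 146 CPM with AURKB shRNA (SD, n = 3), a log2 ratio of -0.19.

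Complex III (cytochrome bc1), which moves electrons from ubiquinol to cytochrome c, has 1 mitochondrial gene. MT-CYB (ENSG00000198727, MT:14747-15887), for cytochrome b, had 4372, 4322 and 4589 CPM in the controls and 3843, 3714 and 3753 CPM in the knockdown libraries. It fell by 0.23 ± 0.03 in log2 units (edgeR adjusted p = 3.17e-03), with the arms apart.

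Complex V (ATP synthase) has 2 mitochondrial mRNAs, and neither was called. MT-ATP8 (ENSG00000228253, MT:8366-8572) had 1305, 1351 and 1422 CPM against 1370, 1331 and 1264 CPM, a log2 fold change of -0.04 ± 0.04 (edgeR adjusted p = 0.551). MT-ATP6 (ENSG00000198899, MT:8527-9207) had 1096, 1150 and 1050 CPM against 1116, 1054 and 1045 CPM, also at -0.04 ± 0.04 (edgeR adjusted p = 0.593). The arms overlapped in both. The MT-ATP6 estimate was at 8.2e-05 without shGFP replicate 2.

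MT-ATP8 and MT-ATP6 share 46 bases in different reading frames, and MT-ND4L and MT-ND4 share 7 bases. These stretches are shown with 20 flanking bases on each side because the bases in capitals belong to both genes (GENCODE release 29, GRCh38, plus strand, 5′ to 3′). The first spans MT:8507-8592 and the second MT:10740-10786.
MT-ATP8 into MT-ATP6: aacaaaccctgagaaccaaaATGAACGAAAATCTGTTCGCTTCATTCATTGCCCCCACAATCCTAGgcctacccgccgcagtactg
MT-ND4L into MT-ND4: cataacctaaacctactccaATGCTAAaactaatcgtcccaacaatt
The capitals begin with the start codon of the downstream gene and end with the stop codon of the upstream gene. The partners of each pair had like changes: -0.04 and -0.04 for the first, -0.25 and -0.24 for the second.

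Levels per length (FPKM, which divides by gene length and library total) differed widely among members. In the controls the order was MT-CO1 at 9686 ± 116 (SD, n = 3), MT-ND4L at 8637 ± 288, MT-CO2 at 8597 ± 190, MT-CO3 at 7683 ± 152, MT-ATP8 at 6668 ± 286 and MT-ND4 at 5562 ± 105 FPKM. MT-ND4L and MT-CO2 did not differ beyond their spread. Below them came MT-CYB at 3941 ± 126, MT-RNR2 at 2914 ± 58.8, MT-ND5 at 2336 ± 12.2, MT-ND2 at 2233 ± 47.3 and MT-ND1 at 2095 ± 23 FPKM. MT-ND3 at 1769 ± 104 and MT-ATP6 at 1638 ± 74.4 FPKM overlapped within their spread, followed by MT-ND6 at 1228 ± 50.7 and MT-RNR1 at 1029 ± 12.2 FPKM. Reads assigned to copies of these genes in the nuclear genome are not in these levels. For MT-ATP6 the copy MTATP6P1 held 51.8% as many reads as the gene itself. MT-ATP8 and MT-ATP6 share an mRNA, and yet the ratio of their control levels was 4.08. For MT-ND4L and MT-ND4, which also share an mRNA, it was 1.55. So the order is one of reads per length, and for these short or overlapping genes it does not give amounts of RNA. The mRNAs of complex IV thus stood above the rRNAs in these libraries. With AURKB shRNA MT-ND2 reached 3056 ± 45.8 FPKM, beside MT-RNR2 at 2993 ± 70.9 FPKM with overlapping libraries, and MT-RNR1 reached 1501 ± 35 FPKM, above MT-ND6 at 997 ± 53.4 FPKM. How fully the libraries captured RNAs with and without a poly(A) tail is not given in the sources used here, so these levels are those of library reads. For the changes of the rRNAs and of the mRNAs, their sums and their ratios, RNA amount and capture cannot be told apart.

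**Figure D2:**
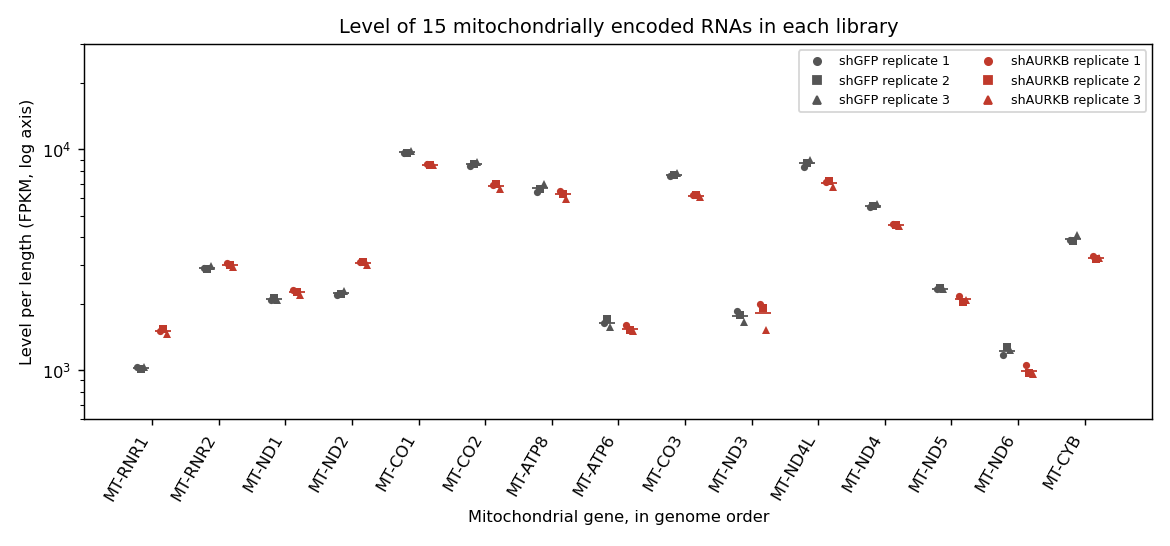
Level per length (FPKM, log axis) of the 15 mitochondrial RNAs in genome order, with 1 point per library and a line at the mean of each arm. MT-RNR1, MT-ND1 and MT-ND2 lie higher in all 3 shAURKB libraries. MT-CO1, MT-CO2, MT-CO3, MT-ND4L, MT-ND4, MT-ND5, MT-ND6 and MT-CYB lie lower in all 3.

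Because all members derive from 1 genome, each was also tested against the summed mitochondrial mRNA, which replaced the library size in the same fit. On this scale 25% of all tested genes were higher and 6% lower, and the median gene lay at 0.13, since the pool itself fell. Of the 15 members 4 rose and 5 fell relative to the pool. The pool contains the mRNA members themselves, so their values on this scale depend on each other. MT-RNR1 rose by 0.73 ± 0.03 (edgeR adjusted p = 9.27e-05) and MT-ND2 by 0.64 ± 0.02 (edgeR adjusted p = 9.27e-05). MT-ND1 rose by 0.29 ± 0.03 (edgeR adjusted p = 5.81e-04) and MT-RNR2 by 0.23 ± 0.02 (edgeR adjusted p = 1.02e-03). These are the first 4 members of the heavy-strand order. MT-CO2, MT-CO3, MT-ND4L, MT-ND4 and MT-CYB fell by 0.10 to 0.15, the largest being MT-CO2 at -0.15 ± 0.03 (edgeR adjusted p = 5.36e-03). With 1 library left out the edgeR adjusted p of MT-ND4L reached 0.0786 and that of MT-CYB 0.112. Without shGFP replicate 3, shAURKB replicate 1 or shAURKB replicate 3, 3 members were called lower.

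MT-CO1, MT-ND5, MT-ATP8, MT-ATP6, MT-ND3 and MT-ND6 were not called against the pool. MT-CO1 holds the largest part of that pool, and its value was 0.002 ± 0.023 (edgeR adjusted p = 0.958), or -0.03 when the rRNAs were added to the pool. MT-ND3 stood at 0.22 ± 0.10 (edgeR adjusted p = 0.132), and without shAURKB replicate 3 it was called at 0.32 (edgeR adjusted p = 0.0187). MT-ND6 stood at -0.11 ± 0.04 (edgeR adjusted p = 0.0891), and with the rRNAs added to the pool it was called at -0.15 (edgeR adjusted p = 0.0437).

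Ratios of levels within a library need no scaling between libraries, and pairs were chosen after the values were seen. The ratio of MT-RNR1 to MT-RNR2, in FPKM, was 0.357, 0.354 and 0.348 in the controls and 0.492, 0.512 and 0.501 with AURKB shRNA. In library reads the 12S rRNA thus gained on the 16S rRNA in every knockdown library. MT-ND2 to MT-ND1 was 1.061, 1.044 and 1.094 in the controls and 1.339, 1.353 and 1.371 with AURKB shRNA, and MT-ND2 to MT-CO1 went from 0.229, 0.229 and 0.233 to 0.361, 0.362 and 0.354. For these 3 pairs the arms lay far apart. Pairs that share an mRNA behaved otherwise: MT-ATP8 to MT-ATP6 was 4.08 ± 0.33 and 4.06 ± 0.09 (SD, n = 3), and MT-ND4L to MT-ND4 was 1.55 ± 0.03 and 1.55 ± 0.04, with overlapping arms. MT-ND6 to MT-ND5 was 0.525 ± 0.021 and 0.476 ± 0.013, with the arms apart.

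**Figure D3:**
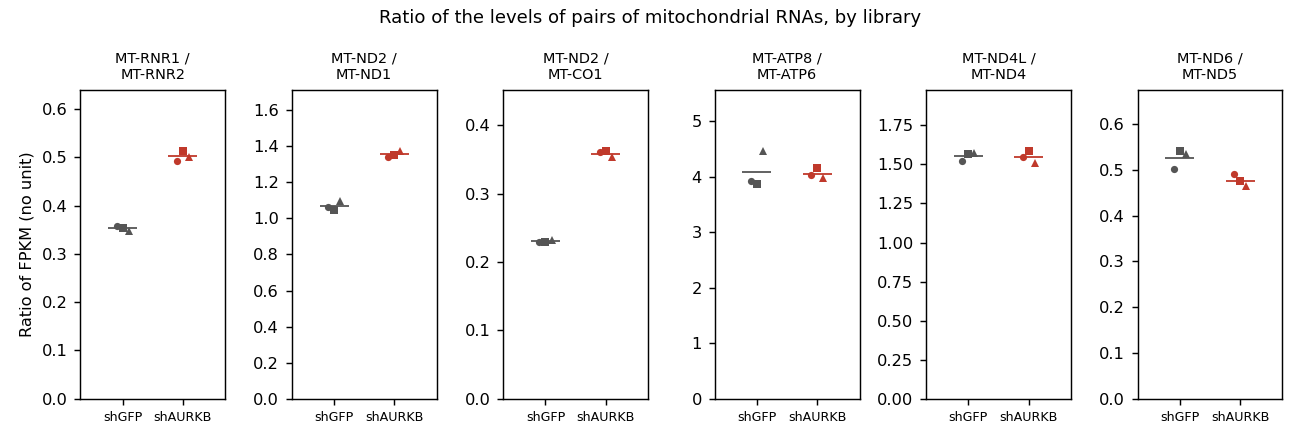
Ratio of FPKM for 6 pairs of mitochondrial RNAs in each library (vertical axis from 0, points as in the plot of levels, lines at the arm mean). MT-RNR1 to MT-RNR2 and both MT-ND2 ratios are higher in all 3 shAURKB libraries, and the ratios of overlapping genes do not separate the arms.

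Along the heavy-strand order the values were uneven rather than graded. The 4 members from MT-RNR1 to MT-ND2, a group formed after the values were seen, had positive estimates of 0.60, 0.09, 0.16 and 0.50. Of the 11 members from MT-CO1 to MT-CYB, which include MT-ND6 of the other strand, 10 had negative estimates and MT-ND3 was the exception. Over the 14 plus-strand members, Spearman's rho of the log2 fold change with position was -0.61. With the control level in CPM it was -0.66 and with gene length 0.12. These are descriptions over genes of 1 genome that share libraries and precursor.

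The mRNAs also differ in how they end, shown because translation of some depends on the poly(A) tail. Of the 13 mRNA genes, 7 end with a complete stop codon and 6 (MT-ND1, MT-ND2, MT-CO3, MT-ND3, MT-ND4 and MT-CYB) with T or TA alone, which polyadenylation completes to a stop codon. The last 24 bases of both mRNAs that rose and of 3 that fell follow (GENCODE release 29, sense strand, 5′ to 3′), with the last codon or its remnant in capitals.
MT-ND1: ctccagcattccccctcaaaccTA
MT-ND2: ccccttttatactaataatcttaT
MT-CO3: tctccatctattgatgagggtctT
MT-CO1: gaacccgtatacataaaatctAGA
MT-ND6: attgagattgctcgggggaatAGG
MT-CO1 and MT-ND6 end with AGA and AGG. Both risers lack a complete stop codon, and so do 3 of the 8 fallers (MT-CO3, MT-ND4 and MT-CYB). The 7 mRNAs with a complete stop codon held the other 5 fallers and both complex V mRNAs, which were not called and had estimates just below 0. Genes without a complete stop codon thus went both ways, and none with one rose.

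Copies of mitochondrial DNA lie in the nuclear genome, and reads from near-identical stretches can be assigned to either. The table holds 365 genes named as such copies, of which 83 had a count and 8 passed the filter. The copies MTATP6P1 and MTND2P28, both on chromosome 1, held 58529 of the reads and all others 2695. MTND2P28 (ENSG00000225630, chromosome 1, 629640 to 630683) had 266.2, 266.4 and 300.1 CPM in the controls and 387.7, 376.1 and 419.4 CPM with AURKB shRNA. It rose by 0.51 ± 0.06 in log2 units (edgeR adjusted p = 2.47e-03), as MT-ND2 did, and its reads came to between 11.5% and 13.1% of those of MT-ND2 in every library. MTATP6P1 (ENSG00000248527, chromosome 1, 633696 to 634376) had 562.4, 570.7 and 573.4 CPM against 561.2, 553.4 and 546.2 CPM (log2 fold change -0.04 ± 0.03, edgeR adjusted p = 0.356). Its reads came to 49.6% to 54.6% of those of MT-ATP6. MTND2P28 was the only one of the 8 tested copies that was called.

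**Figure D4:**
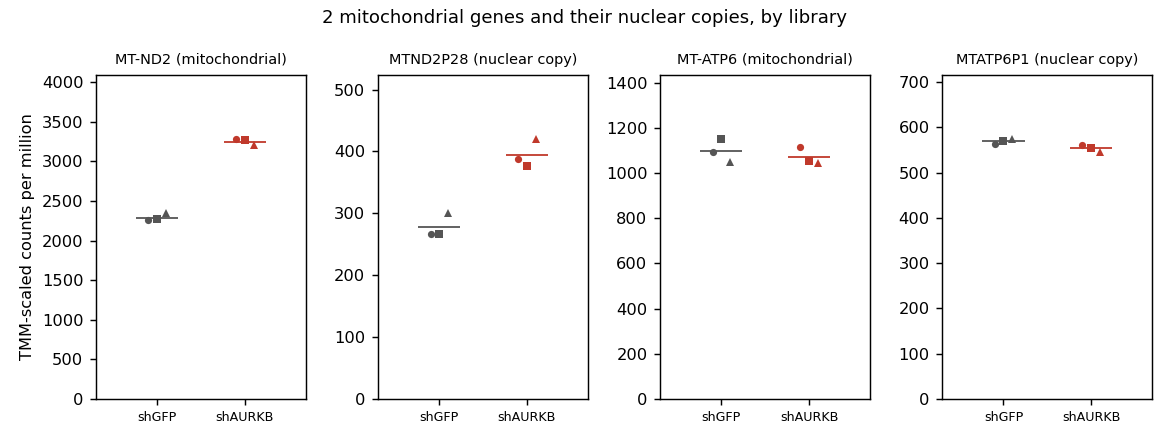
TMM-scaled CPM of MT-ND2, MT-ATP6 and their most counted nuclear copies in each library (vertical axes from 0 and different in each panel, lines at the arm mean). MT-ND2 and MTND2P28 lie higher in all 3 shAURKB libraries, and MT-ATP6 overlaps between the arms.

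Aligned over 1042 bases, MT-ND2 and MTND2P28 differed at 17 and had 2 gap positions, an identity of 98.37%, and MT-ATP6 and MTATP6P1 at 10 of 681 (98.53%). The 60-base windows with the most differences are shown in pairs with the differing bases in capitals, since outside such bases a read cannot be placed by its sequence (GENCODE release 29, GRCh38, plus strand, 5′ to 3′). The windows are MT:4899-4958 beside chr1:630069-630128, and MT:8642-8701 beside chr1:633811-633870.
MT-ND2: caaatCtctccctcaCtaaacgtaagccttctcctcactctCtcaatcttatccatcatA
MTND2P28: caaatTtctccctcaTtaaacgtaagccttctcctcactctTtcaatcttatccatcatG
MT-ATP6: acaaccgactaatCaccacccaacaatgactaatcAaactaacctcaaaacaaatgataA
MTATP6P1: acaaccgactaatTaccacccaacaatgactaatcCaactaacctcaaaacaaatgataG
The pairs differ at 4 and 3 of 60 bases. Of all 50-base windows of MT-ND2, 43.6% occur exactly in a nuclear transcript of the annotation, as do 46.7% for MT-ATP6, 49.5% for MT-CO1 and 22.1% for MT-ND1. For MT-RNR1, MT-ND3 and MT-ND4L none did. With 100-base windows the shares were 26.1% for MT-ND2, 11.9% for MT-ATP6 and 27.9% for MT-CO1. MT-CO1 had the highest share, and yet its copy MTCO1P12 held 393 reads, 0.0428% of those of MT-CO1. When the reads of the copies were added to their mitochondrial genes, an alternative chosen after seeing the data, MT-ND2 was again at 0.50 and all 11 calls held.

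Nuclear genes that maintain, transcribe and process the mitochondrial genome were counted from lists. Of 61 such genes tested, 16 rose and 3 fell, with a median log2 fold change of 0.10 beside -0.004 over all tested genes. The counts in this list and its parts are to be read beside the 12.5% of all tested genes that rose and the 10.9% that fell. In transcription, 2 of 8 rose and none fell. POLRMT, the mitochondrial RNA polymerase gene, had 93.05, 74.73 and 84.03 CPM in the controls and 113.2, 115.2 and 120.2 CPM with AURKB shRNA, and rose by 0.47 ± 0.08 (edgeR adjusted p = 8.56e-03). TFB2M, the initiation factor gene, rose by 0.43 ± 0.08 from 21.8 ± 1.64 to 29.4 ± 1.37 CPM (SD, n = 3; edgeR adjusted p = 0.0118). TFAM, which packages and bends mitochondrial DNA, was at 0.16 ± 0.07 (edgeR adjusted p = 0.124), and the elongation factor gene TEFM at -0.09 ± 0.14 (edgeR adjusted p = 0.699).

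Among 9 genes for stability, polyadenylation and decay, 4 rose and none fell. SLIRP, whose product binds mitochondrial mRNA together with LRPPRC, rose by 0.55 ± 0.11 (edgeR adjusted p = 0.0114), from 15.4 ± 1.02 to 22.5 ± 2.36 CPM, while LRPPRC was at 0.09 ± 0.03 (edgeR adjusted p = 0.103). DHX30, an RNA helicase gene, rose by 0.44 ± 0.08 (edgeR adjusted p = 0.0110). Of the degradosome, PNPT1, the polynucleotide phosphorylase gene, rose by 0.38 ± 0.05 (edgeR adjusted p = 4.04e-03), and the helicase gene SUPV3L1 was at 0.04 ± 0.06 (edgeR adjusted p = 0.706). The poly(A) polymerase gene MTPAP was at 0.05 ± 0.07 (edgeR adjusted p = 0.622). SUPV3L1 and MTPAP turned to -0.02 and -0.001 when libraries were scaled by total count.

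In RNA processing 4 of 14 genes rose and 1 fell. FASTKD4, named TBRG4 in the table, rose by 0.33 ± 0.06 (edgeR adjusted p = 0.0121). TRMT10C, a subunit gene of mitochondrial RNase P, rose by 0.32 ± 0.10 (edgeR adjusted p = 0.0498), a call that 14 of 20 alternatives lost. Of 18 genes that modify rRNA or tRNA 4 rose and none fell, led by the methyltransferase gene NSUN2 at 0.43 ± 0.05 (edgeR adjusted p = 2.39e-03) and the pseudouridine synthase gene PUS1 at 0.41 ± 0.05 (edgeR adjusted p = 3.17e-03). Genes of mitochondrial DNA maintenance were divided, with 2 of 12 higher and 2 lower. TK2, the mitochondrial thymidine kinase gene, fell by 0.91 ± 0.11 (edgeR adjusted p = 2.14e-03), from 19.6 ± 0.463 to 10.5 ± 1.22 CPM, and the primase-polymerase gene PRIMPOL fell by 0.53 ± 0.10 (edgeR adjusted p = 0.0129). Without shGFP replicate 2, shAURKB replicate 2 or shAURKB replicate 3, 10 of these nuclear genes were called higher instead of 16.

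Of 8 nuclear regulators of mitochondrial genes, 7 were tested, 3 rose and none fell, beside 12.5% and 10.9% of all tested genes. The nuclear receptor gene ESRRA rose by 0.48 ± 0.09 (edgeR adjusted p = 9.59e-03) and PPRC1, a coactivator gene, by 0.35 ± 0.05 (edgeR adjusted p = 5.27e-03). NRF1 was at 0.14 ± 0.17, MYC at 0.12 ± 0.25 and GABPA at 0.01 ± 0.07 (edgeR adjusted p = 0.584, 0.778 and 0.917). NRF1 ran from 0.013 without shGFP replicate 1 to 0.275 without shGFP replicate 3, and was 0.263 without shAURKB replicate 2 and 0.014 without shAURKB replicate 3. MYC turned to -0.13 without shAURKB replicate 1, and GABPA to -0.04 with total-count scaling. PPARGC1A had 0 reads in every library.

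**Figure D5:**
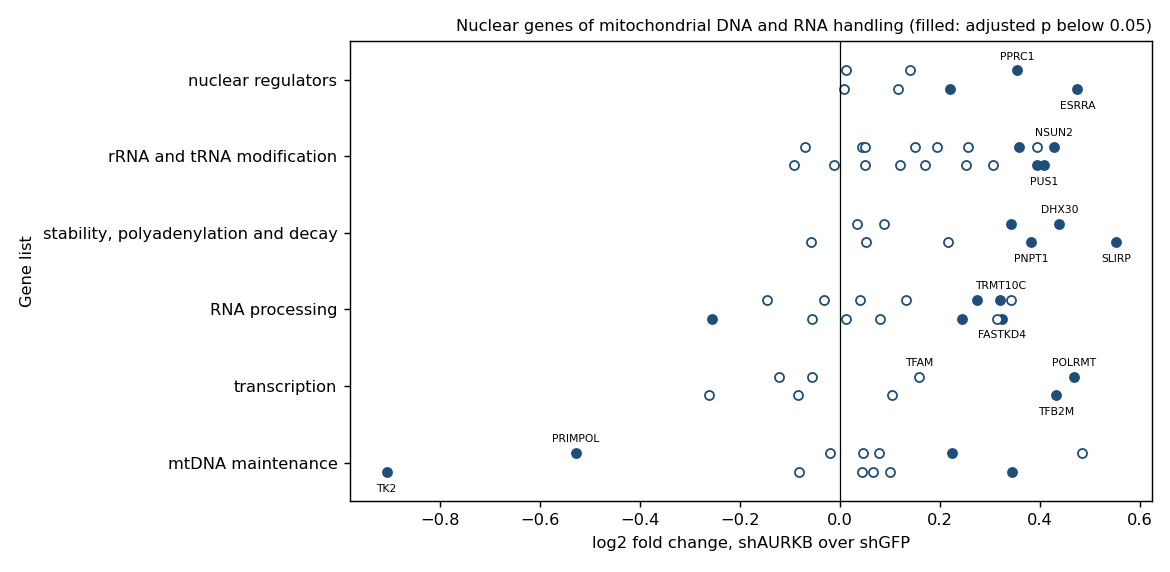
Log2 fold change (shAURKB over shGFP) of the nuclear genes in each list, 1 point per gene and filled where the adjusted p was below 0.05. POLRMT, TFB2M, SLIRP and ESRRA lie between 0.43 and 0.55, and TK2 at -0.91 is the lowest.

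The promoter of POLRMT is shown because this gene rose and its window holds letters bound by known regulators of mitochondrial genes. CGCATGCG, a core of NRF1 sites and the same on both strands, and CCGGAAGT, a core of GABPA sites (ACTTCCGG on the other strand), were searched in 250 bases before to 50 bases after each start in RefSeq (GRCh38.p14). They are in capitals, do not overlap, and lie in chr19:633488-633787, minus strand, written 5′ to 3′.
POLRMT: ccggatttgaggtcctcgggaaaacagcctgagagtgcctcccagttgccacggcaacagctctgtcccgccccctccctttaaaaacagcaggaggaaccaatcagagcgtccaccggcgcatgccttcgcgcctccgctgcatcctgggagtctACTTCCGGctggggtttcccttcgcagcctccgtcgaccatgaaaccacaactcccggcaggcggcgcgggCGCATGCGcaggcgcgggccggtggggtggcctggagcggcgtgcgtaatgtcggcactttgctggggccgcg
For 51 of the 61 nuclear genes the RefSeq table held 60 promoters, of which 5 held the NRF1 letters (8.33%) and 16 the GABPA letters (26.7%). Over all 35116 promoters the shares were 2.02% and 4.14%. A longer NRF1 core, with G before and C after, was tried first and was held by 2 of the 60 (3.33%) and by 1.24% of all promoters. Of the 5 genes with the NRF1 letters, POLRMT and TFB2M rose, and MTPAP, MRM1 and TFB1M were not called. Of the 14 genes with the GABPA letters, POLRMT, DHX30, TRMT10C, PDE12 and SSBP1 rose. The others, TEFM, ELAC2, MRM2, MTERF1, MTERF4, NSUN3, OSGEPL1, TRMU and TRNT1, were not called. A match describes letters in a window and not binding.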

How the data were processed

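For each Ensembl gene the authors deposited a count and an FPKM value per library. HISAT2 2.0.4, StringTie 1.3.0 and edgeR on GRCh38 are named per the submitters' processing notes, while what each did, strandedness and the treatment of multiply placed reads were not given in the sources used here. For the members the deposited FPKM equal the count divided by gene length and library total (largest relative deviation 2.85e-07). Genes with low counts were removed by filterByExpr. It kept genes with the equivalent of 10 reads at the median library size in at least 3 libraries, and 15 in all. Counts were scaled by TMM (factors 0.9789 to 1.0204). CPM are TMM-scaled except marker sums. The arms were compared with edgeR 4.0.16 in R 4.3.3 (quasi-likelihood, two-sided, Benjamini-Hochberg over all 14818 genes, threshold 0.05), first tested on simulated data. Of each nuclear gene list the 2 called genes with the largest change were named, besides a fixed set. Members and lists were chosen with earlier results of these data known. Alternatives were RLE, upper-quartile, total-count and nuclear-only scaling, DESeq2 1.42.0, limma-voom (limma 3.58.1), robust dispersions, limma-trend on log2(FPKM + 1) or log2(FPKM + 0.1), other filters, leaving out each library, and a block for the replicate number.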

Additional observations from a re-analysis of the deposited data

How the results depend on the processing

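Over 20 alternatives the 15 members gave 300 estimates, of which 277 kept direction and call, 19 lost the call, 3 gained it and 1 turned sign. With limma-trend on unfiltered log2(FPKM + 1), 1 member was called lower instead of 8, 8 nuclear genes of the machinery higher instead of 16, and 914 genes of all tested higher instead of 1847. The replicate numbers did not pair the libraries (correlations of deviations -0.089, -0.031 and -0.037), and with the replicate number as a block 1027 genes in all were lower instead of 1609, 10 machinery genes higher, and 2 members lower relative to the mitochondrial mRNA pool instead of 5. In the block fit 6 members were lower instead of 8, with MT-ND5 (edgeR adjusted p = 0.0898) and MT-ND6 (0.0502) no longer called, and MT-ND3 was called higher relative to the pool (0.0337). Leaving out 1 library gave 998 to 1056 lower genes in all, 10 to 14 higher machinery genes, and 3 to 4 members lower relative to the pool. Scaling by total count moved the log2 ratios of the sums to -0.15 for all members, 0.14 for rRNA, -0.19 for mRNA, -0.11 for complex I, -0.28 for complex III, -0.25 for complex IV and -0.09 for complex V. Estimates near 0 turned sign: MT-ATP6 ranged from -0.065 to 8.2e-05 with 1 library left out, TEFM from -0.15 to 0.003, MYC from -0.13 to 0.36 and GABPA from -0.019 to 0.083. Against the pool with rRNA included MT-CO1 was at -0.032 and MT-ND5 at -0.006, and MT-CO1 ranged from -0.007 to 0.01 with 1 library left out. MTPAP was at -0.002 (upper quartile) and -0.001 (total count). SUPV3L1 was at -0.019 and -0.018 with these scalings, and at -0.014, -0.016 and -0.014 on FPKM. GABPA was at -0.041 and -0.040, and at -0.034, -0.036 and -0.034 on FPKM. The cause was not tested.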

Other observations

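Within the reads of the 15 mitochondrial genes, MT-CO1 held 25.1% on average in the controls and 24.6% with AURKB shRNA, and MT-ND4 12.9% and 11.7%. MT-ND2 held 3.92% and 5.96%, MT-RNR1 1.65% and 2.68%, and MT-RNR2 7.65% and 8.73%. Shares of 1 total depend on each other and were not tested.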
